A study of Mus musculus with 10 samples.

Results

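Endothelial cells of femur and tibia from 75-week-old mice were compared with those from untreated 12-week-old mice, with the 2 libraries of each age as the replicates, and most of the comparison was made separately in sinusoidal, arterial and other endothelial cells. All of the mice were female C57BL/6 animals carrying the Cdh5-mTnG reporter, in which the endothelial Cdh5 promoter drives a membrane tomato and a nuclear green fluorescent protein. Muscle and epiphysis were removed, blood cells were depleted with lineage antibodies, and cells positive for both reporter colours were sorted and run on a 10x Genomics Chromium controller with 3′ chemistry. Bones of several mice were pooled, and the study's methods describe a single experiment for each age, so that the spread between the 2 libraries of an age is not the spread between animals and may be technical, and the p-values measure that spread alone. The remaining 6 libraries of the series, from 3-week-old mice and from 12-week-old mice given parathyroid hormone or alendronate, are not compared here.

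A cell barcode was kept with 500 to 6000 detected genes, under 25% of its UMIs (unique molecular identifiers, each standing for 1 captured transcript) on mitochondrial genes, at least 2 UMIs summed over Cdh5, Pecam1, Egfl7 and Kdr, and none of Ptprc, the pan-leukocyte CD45 gene. These limits kept 15507 of the 16911 barcodes of the 4 libraries, out of 44637 endothelial cells in all 10 libraries. Cells with at least 3 UMIs of Stab2, a scavenger receptor of sinusoids, were taken as sinusoidal, giving 6388 cells. Cells with at least 4 UMIs summed over Gja4, Gja5, Fbln5 and Stmn2 and at most 1 of Stab2 were taken as arterial, giving 2573 cells. The other 6546 cells passed neither gate, so they include capillary cells and cells with too few UMIs to be placed. Any change of their make-up with age enters each value given for other cells, and its part was not tested. The sinusoidal gate set no limit on arterial genes, so cells with both Stab2 and arterial genes were counted as sinusoidal. There were 39 and 44 of these in the adult libraries, against 2608 and 2522 sinusoidal cells. In the aged libraries there were 92 and 71, against 637 and 621 sinusoidal cells. Genes outside the gates went with the names: Sema3g, an arterial semaphorin, stood at 417 to 768 counts per 1000000 (CPM) in the arterial cells of the 4 libraries and at 18.7 to 29.9 CPM in their sinusoidal cells, whereas Dnase1l3, a secreted nuclease of sinusoids, stood at 2431 to 4693 CPM in sinusoidal and 9.92 to 108 CPM in arterial cells.

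Bone receives arterial blood through thin arterioles that pass into capillaries near the growth plate and bone surface (type H), and these drain into the wide, fenestrated sinusoids of the marrow. Sinusoidal cells clear waste from the blood and let haematopoietic cells pass, while arterial and capillary cells hold much of the vascular supply of the niche factors Cxcl12 and Kit ligand. Fewer arterioles and type H capillaries and a changed marrow niche have long been associated with ageing of long bones. Capillaries around remodelling trabecular bone, termed type R, lie between arterioles and sinusoids.

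The aged libraries stood apart from the adult ones in several features of the whole library. Their endothelial cells held a median of 4938 and 4812 UMIs, against 3299 and 3106 at 12 weeks, and a median of 2.43% and 2.54% mitochondrial UMIs, against 1.16% and 1.18%. Gene names that begin with U, which were left out of every sum, took 1.524% and 1.535% of the UMIs of the aged libraries and none in the adult ones. The structural RNA entry mmu-mir-6236 stood at 2450 and 2314 CPM in aged sinusoidal cells, against 21.02 and 17.32 CPM in adult ones, and was raised by a similar log2 fold in arterial (7.38) and other cells (7.39). Such differences and age cannot be told apart within any 1 vessel type, since no library of one age shares the features of the other. Beside them, 53% of the 15256 genes tested in all endothelial cells were called at 75 weeks, a call being an adjusted p under 0.05 with at least a 1.5-fold difference in edgeR's quasi-likelihood test. For that reason most of what follows concerns changes that differed between vessel types of the same libraries, where a shift common to a whole library falls out of the difference. The depth shift was not common in this sense: median UMIs per cell went from 3765 and 3659 to 7498 and 7214 in sinusoidal cells, from 3215 and 2964 to 5227 and 5250 in arterial cells, and from 2487 and 2350 to 3428 and 3494 in other cells. Counts with cells thinned to the same depth, and shallower cells left out, are given beside the main ones. The 2 adult libraries, of 5983 and 5752 barcodes, shared 45. The 2 aged ones, of 2546 and 2630 barcodes, shared 4, and an adult and an aged library shared 3 or 4. Each aged library also shared 3 or 4 with each of the remaining 6 libraries of the series. Replicate 1 of the parathyroid hormone libraries, with 2193 barcodes, shared 20 and 14 with the adult ones. The aged libraries thus stood apart in this feature too, and its source was not tested.

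Fewer of the sorted cells were sinusoidal and more were arterial at 75 weeks. Sinusoidal cells made up 47.35% and 46.64% of the endothelial cells of the adult libraries and a mean of 27.41% ± 1.287 (SD, n = 2) of the aged ones, a difference of -19.59 percentage points. Arterial cells made up 11.13% ± 0.757 at 12 weeks and 29.56% ± 0.636 at 75 weeks, a difference of 18.43 points. Neither pair of ages overlapped, and other cells, at 41.87% ± 1.259 and 43.02% ± 1.93, did overlap. With 2 libraries against 2 the smallest p an exact two-sided permutation test allows is 0.333, which both shares reached, so none of these differences can pass 0.05. Because a UMI gate admits a deep cell more readily than a shallow one, cells were also thinned to 2000 UMIs each, and shallower cells were left out. The thinned shares are of 4179 and 3969 cells at 12 weeks and of 1907 and 1958 at 75 weeks. They were 20.91% sinusoidal cells at 75 weeks against 35.17% at 12 weeks, and 22.3% arterial cells against 9.718%. With stricter gates, at least 5 UMIs of Stab2 or 6 of the arterial genes, the sinusoidal difference was -7.585 points and the arterial one 15.71 points. The sort and the lineage depletion set which cells entered the libraries, and their part in these shares was not tested.

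**Figure D1:**
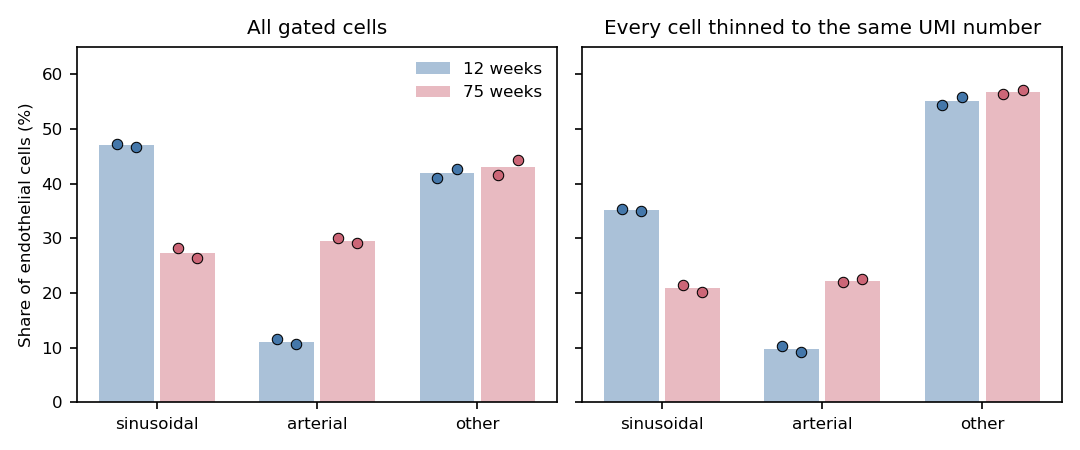
Share of gated endothelial cells (percent, vertical axis) that were sinusoidal, arterial or other, in adult (12-week) and aged (75-week) libraries, for all cells and for cells of at least 2000 UMIs thinned to that number. Bars are means of 2 libraries and points are the libraries. Sinusoidal shares are lower and arterial shares higher in both aged libraries in both panels.

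To compare expression, UMIs were summed over the cells of a library, for all endothelial cells and within each vessel type, and given as CPM of the sum after scaling by the trimmed mean of M-values. In such sums, fewer cells with a transcript and less of it per cell cannot be told apart. In sinusoidal cells 48.1% of 13097 genes were called at 75 weeks (22.9% higher, 25.2% lower), in arterial cells 42.8% of 11232 (23.4% higher, 19.4% lower) and in other cells 54.7% of 13306 (27.7% higher, 27.1% lower). Of the 10999 genes tested in both sinusoidal and arterial cells, 3456 were called in the same direction in both and 30 in opposite directions. The difference of the 2 age effects itself, tested in 1 model over the 12 sums with the library as a block, was called for 1169 of 13613 genes (8.59%), of which 671 were more positive in arterial cells (4.93% of those tested) and 498 more negative (3.66%). For other minus sinusoidal cells 8.06% were called (3.18% more positive in other cells, 4.88% more negative), and for other minus arterial cells 7.32% (3.17% and 4.15%). When cells were thinned to 2000 UMIs and shallower cells left out, 554 of the 1169 called differences were still called, as were 455 of 1097 and 401 of 997 for the other pairs, with 11127 genes tested at the lower depth. Under 1 in 2 of the calls held there. Lost calls of single genes are given below for changes within a vessel type and for arterial minus sinusoidal alone. The differences of other cells from sinusoidal or arterial cells were not checked gene by gene, so a value without a remark was not shown to hold. Whether depth, lower counts, the cells left out or cells leaving the gates ended the rest was not tested. These shares are the background for every count of list members below, and a share of members near them is no result about a list. The separate fits and the joint model were each scaled on their own sums, so a difference from the joint model does not equal the gap between 2 printed folds: it lay below that gap by a median of 0.13 for arterial minus sinusoidal cells and 0.10 for other minus sinusoidal cells on the log2 scale, and above it by 0.03 for other minus arterial cells. Among 3199 genes with at least 50 CPM in both vessel types, a restriction chosen after the values were seen, 330 of the called differences were more positive in arterial cells and 82 more negative. The scaling matters to this split: with plain library totals in place of that scaling, 24.04% of the called differences were more positive in arterial cells, against 57.4%, and the median difference over all genes was -0.18 on the log2 scale.

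**Figure D2:**
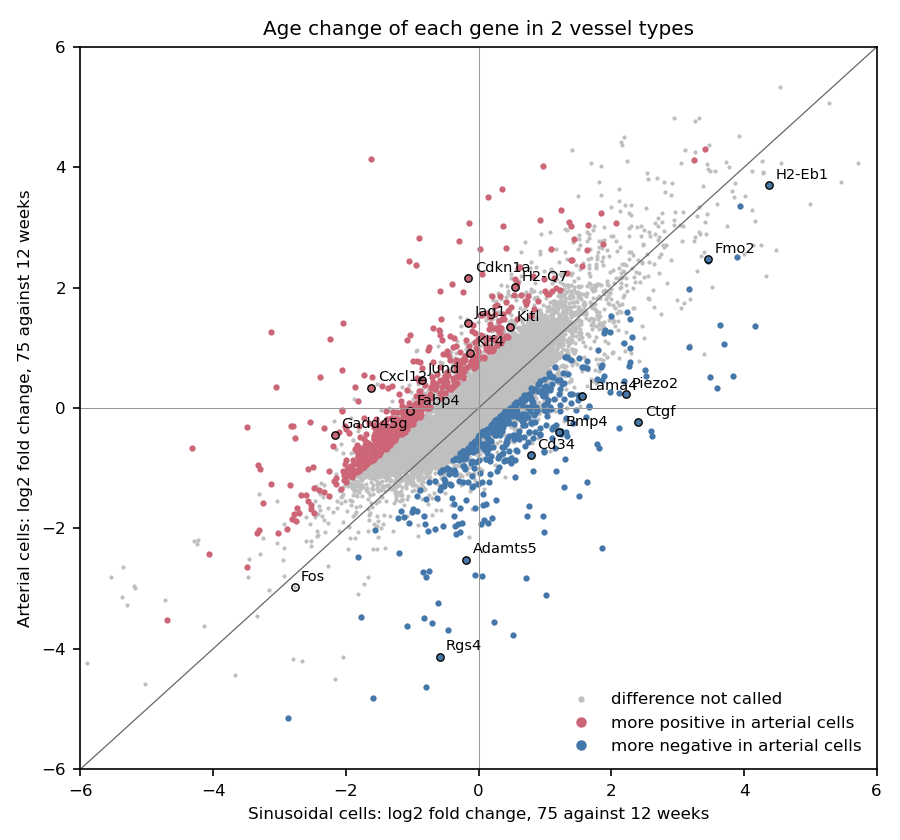
Log2 fold change at 75 against 12 weeks in sinusoidal cells (horizontal axis) and in arterial cells (vertical axis), 1 point for each gene tested in both. Red points had a called difference that was more positive in arterial cells and blue points one that was more negative; 22 of 10999 genes lie outside the axes. Most genes lie along the diagonal, and the coloured points lie off it on both sides.

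Several transcripts rose more in arterial than in sinusoidal cells of the same libraries at 75 weeks. The cell cycle inhibitor Cdkn1a, the Notch ligand Jag1 and the non-classical class I histocompatibility gene H2-Q7 rose in arterial cells, and so did the shear-responsive transcription factor Klf4. In sinusoidal cells none of these 4 genes passed as a call, although H2-Q7 was higher there in both aged libraries, and the difference between the vessel types was called for each.

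Cdkn1a, which encodes the p21 inhibitor of cyclin-dependent kinases and lies at chr17:29090976-29100727 on the plus strand of GRCm38, stood in arterial cells at 55.76 and 58.04 CPM at 12 weeks and at 248.7 and 257.6 CPM at 75 weeks. In sinusoidal cells the values were 84.73 and 71.52 CPM at 12 weeks and 77.98 and 62.38 CPM at 75 weeks. The arterial groups were far apart and the sinusoidal ones overlapped. The log2 fold change was 2.15 ± 0.08 (SE; adjusted p = 2.1e-17, edgeR) in arterial cells and -0.15 ± 0.10 in sinusoidal cells, and the difference in the joint model was 2.18 ± 0.13 (adjusted p = 2.55e-12). In other cells Cdkn1a rose by 1.41, from 97.02 and 86.99 CPM to 262.1 and 225.8 CPM, which also differed from sinusoidal cells, by 1.46. A second annotated gene, AC167363.2, overlaps exons of Cdkn1a, and the strand used in counting was not given in the sources used here. Mdm2, another well-known target of the p53 protein, was not called in any vessel type, at log2 folds of 0.17, 0.00 and 0.22 in sinusoidal, arterial and other cells.

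Jag1, which signals to Notch receptors on neighbouring cells and lies at chr2:137081456-137116644 on the minus strand, stood in arterial cells at 157.3 and 177.7 CPM at 12 weeks and at 410.5 and 481.2 CPM at 75 weeks. In sinusoidal cells it stood at 95.46 and 97.39 CPM and at 82.13 and 90.98 CPM. Aged arterial cells were thus above adult ones in both libraries, and the aged sinusoidal values lay slightly below the adult ones. The difference between the vessel types was 1.44 ± 0.09 on the log2 scale (adjusted p = 4.27e-12), and other cells lay between, with a log2 fold of 0.40 that did not reach 1.5-fold. Among the 16 measured Notch genes the arterial minus sinusoidal difference was called for 2 in each direction, against 4.93% and 3.66% of all genes. Their median was -0.0035, against 0.0172 over all genes. Lfng, a glycosyltransferase that modifies Notch receptors, Notch1 and Nrarp were the other 3 members called, of which Notch1 (0.60) was not called without adult replicate 1 (0.47) or aged replicate 1 (0.41). After thinning neither Notch1 (0.81) nor Nrarp (-0.21) was called.

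H2-Q7 (chr17:35439155-35443773, plus strand) stood in arterial cells at 173.8 and 160.3 CPM at 12 weeks and at 687.2 and 661.8 CPM at 75 weeks. In sinusoidal cells the values were 358.9 and 338.4 CPM and then 512 and 513.6 CPM. Adult arterial cells held less H2-Q7 than adult sinusoidal cells, and aged arterial cells held more. The log2 fold was 2.01 in arterial, 1.39 in other and 0.56 in sinusoidal cells, and arterial minus sinusoidal was 1.32 ± 0.07 (adjusted p = 6.19e-13). H2-Q6 rose in all 3 types (1.02 sinusoidal, 1.89 arterial, 1.54 other). H2-K1, a classical class I gene, rose in arterial (1.08) and other cells (1.01) and stood at a log2 fold of 0.57 in sinusoidal cells. These genes are near-identical in parts of their sequence, so reads may have been shared between them and their separate values are uncertain. B2m, the common light chain of class I molecules, fell in all 3 (-1.46 sinusoidal, -0.95 arterial, -1.22 other), and over the 17 class I and peptide-loading genes the median log2 folds were 0.0528, 0.0646 and 0.276.

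Klf4, a zinc-finger factor induced by laminar flow (chr4:55527143-55532466, minus strand), stood in other cells at 127.7 and 120.3 CPM at 12 weeks and at 394 and 411.1 CPM at 75 weeks. In arterial cells it rose from 457.7 and 405.8 CPM to 803.4 and 834.7 CPM. In sinusoidal cells 132.2 and 121.7 CPM stood against 124.6 and 108.3 CPM, and the ages overlapped. The age effect exceeded that of sinusoidal cells by 1.72 ± 0.08 in other cells and by 0.91 ± 0.08 in arterial cells. Its paralogue Klf2 did not rise in any of the 3: it fell in sinusoidal cells by 1.25 and in arterial cells by 0.68 on the log2 scale, and in other cells stood at -0.08, so that other minus sinusoidal was again positive, at 1.08.

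**Figure D3:**
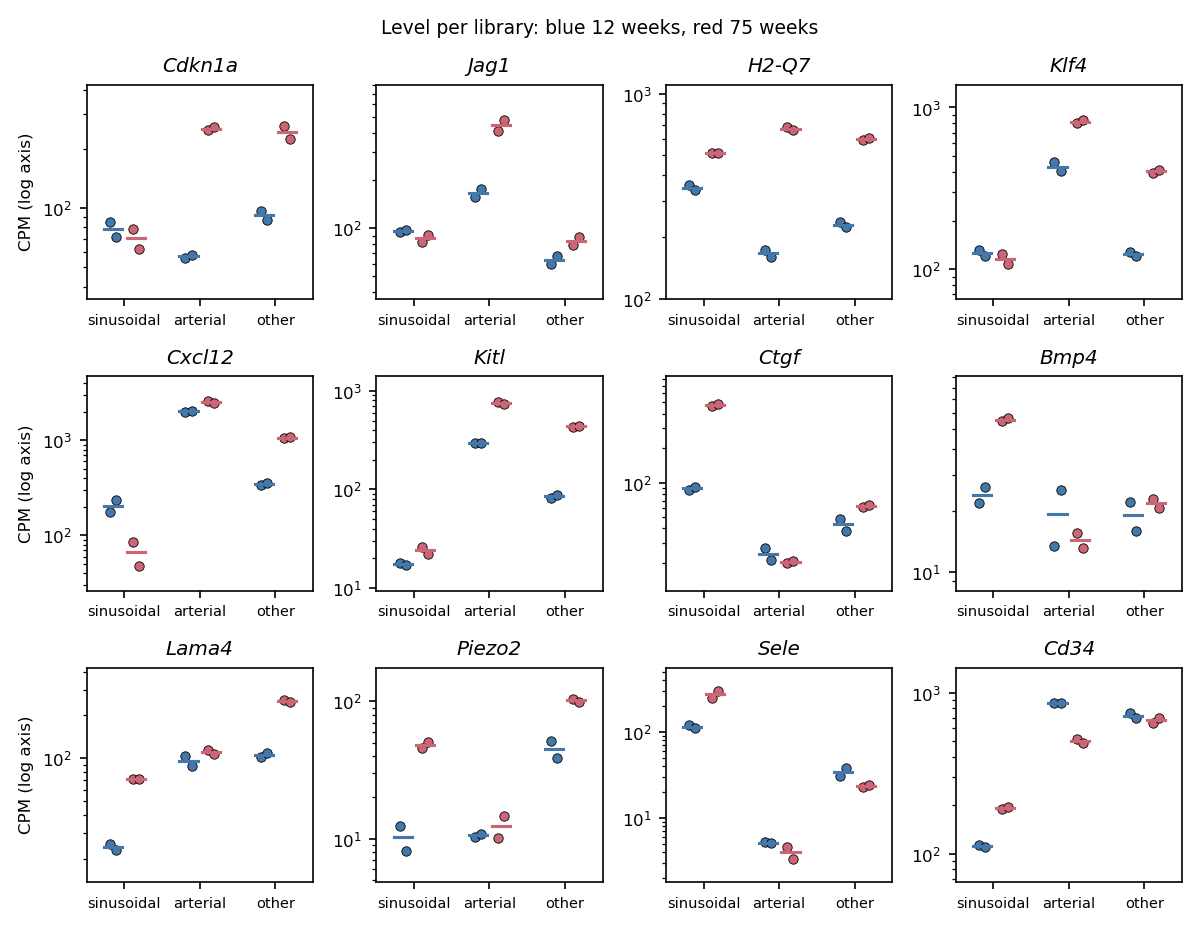
CPM (log axis) in each library for 12 genes, by vessel type; points are the libraries of each age and short lines their means. Cdkn1a and Jag1 are far apart by age in arterial cells and close together in sinusoidal cells, Ctgf and Bmp4 are far apart in sinusoidal cells and close together or overlapping in arterial cells, and Cd34 moves in opposite directions.

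Other transcripts rose more in sinusoidal than in arterial cells, among them secreted regulators, an adhesion molecule and laminin chains. Ctgf, Bmp4, Piezo2, Sele, Lama4 and Tril rose in sinusoidal cells and were not called in arterial cells, and each difference between the vessel types was called. The surface sialomucin Cd34 rose in sinusoidal cells and fell in arterial cells.

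Ctgf (annotated as Ccn2, chr10:24595442-24598683, plus strand), a matricellular protein made in response to Yap signalling and TGF-β, stood in sinusoidal cells at 86.39 and 92.36 CPM at 12 weeks and at 467.2 and 483.1 CPM at 75 weeks. Arterial cells held 26.8 and 21.06 CPM and then 20.09 and 21 CPM. The sinusoidal groups were far apart, and the arterial ones did not overlap but differed by less than 1.5-fold. The log2 fold was 2.41 ± 0.06 in sinusoidal and -0.23 ± 0.19 in arterial cells, and arterial minus sinusoidal was -2.78 ± 0.21 (adjusted p = 2.42e-10). Cyr61, the related Yap target, did not follow: it fell in sinusoidal cells (-0.83) and in arterial cells (-1.79). Gm15270 overlaps exons of Ctgf.

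Bmp4, a bone morphogenetic protein ligand, stood in sinusoidal cells at 21.9 and 25.99 CPM at 12 weeks and at 54.93 and 56.43 CPM at 75 weeks, a log2 rise of 1.22 ± 0.09. In arterial cells 13.4 and 25.17 CPM stood against 15.51 and 13.06 CPM, with overlap. The difference was -1.75 ± 0.29 (adjusted p = 9.52e-05). Of 21 BMP and TGF-β genes, 2 differences were more positive and 3 more negative in arterial cells, against 4.93% and 3.66% of all genes. Id1, a transcriptional target of BMP receptors, went against its ligand: it fell more in sinusoidal cells (-1.52) than in arterial (-0.62), by 0.76 ± 0.06, a call that ended with plain library totals (0.57) and without likely doublets (0.53). Its fall in arterial cells was under 1.5-fold without aged replicate 2 (-0.57).

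Piezo2, a mechanically gated channel, stood in sinusoidal cells at 12.28 and 8.194 CPM at 12 weeks and at 45.57 and 50.29 CPM at 75 weeks. In other cells it rose from 51.79 and 38.68 CPM to 103.5 and 99.53 CPM. In arterial cells it stayed between 10.17 and 14.6 CPM in all 4 libraries. The arterial minus sinusoidal difference was -2.11 ± 0.31.

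Sele, E-selectin, which tethers rolling leukocytes and haematopoietic progenitors, stood in sinusoidal cells at 119.7 and 111.7 CPM at 12 weeks and at 246.9 and 300.2 CPM at 75 weeks. It was at 3.33 to 5.19 CPM in arterial cells throughout. In other cells it stood at 30.56 and 38.05 CPM against 22.82 and 23.98 CPM, a log2 fold of -0.55, so that other minus sinusoidal was -1.89 ± 0.14. The arterial difference, -1.76 ± 0.44, rested on few UMIs and was not called after thinning (-1.60) or with stricter gates (-1.52). Selp, P-selectin, stood at a log2 fold of 0.14 in sinusoidal cells and fell in other cells (-1.34). Vcam1, the ligand of the integrin VLA-4 on blood progenitors, fell in all 3, from 1922 and 1813 CPM to 923.7 and 1042 CPM in sinusoidal cells and most in other cells, from 572 and 597.4 CPM to 159 and 133.3 CPM. Of 23 genes of leukocyte adhesion and NF-κB signalling, 1 difference was more positive and 4 were more negative in arterial cells, against 4.93% and 3.66% of all genes. Selp was among the 4 (-0.82), and its call was lost without adult replicate 2 (-0.35) or aged replicate 2 (-0.51).

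Cd34 stood in sinusoidal cells at 112.8 and 110.3 CPM at 12 weeks and at 190.2 and 196 CPM at 75 weeks. Arterial cells held 863.2 and 859.3 CPM and then 515.5 and 484.1 CPM. Both shifts were called in the separate fits, with log2 folds of 0.79 and -0.79, and the difference in the joint model was -1.71 ± 0.07 (adjusted p = 3.52e-14), while other cells stood at -0.10. With the scaling of the joint model, the log2 ratio of arterial to sinusoidal level went from 2.97 and 2.99 at 12 weeks to 1.33 and 1.21 at 75 weeks. Tril, a Toll-like receptor accessory protein, moved likewise in sinusoidal cells (1.24) and stood at -0.43 in arterial cells, a difference of -1.80.

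Of the 27 basement membrane and matrix genes measured, the arterial minus sinusoidal difference was called negative for 10 and positive for 2, against 3.66% and 4.93% of all genes. Within sinusoidal cells 8 of 25 rose and 6 fell, where 22.9% and 25.2% of all genes did, and within arterial cells 5 of 24 rose and 3 fell, against 23.4% and 19.4%. Within other cells 12 of 26 rose and 2 fell, against 27.7% and 27.1%. The median log2 folds were 0.362, 0.104 and 0.647, and the count of falls in sinusoidal and of rises in arterial cells was near that of all genes. Other minus arterial was called positive for 11 and negative for 1, against 3.17% and 4.15% of all genes.

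Among the members, Lama4, the α chain of the laminin of small vessels (chr10:38965515-39110188, plus strand), stood in sinusoidal cells at 25.33 and 23.06 CPM at 12 weeks and at 71.32 and 71.78 CPM at 75 weeks, a log2 rise of 1.56. In arterial cells 103.3 and 88.86 CPM stood against 114.4 and 107.8 CPM, and in other cells it rose from 102.2 and 108.8 CPM to 253.5 and 245 CPM. The difference was -1.49 ± 0.13 (adjusted p = 1.78e-09). Its partner Lamb1 behaved alike, with log2 folds of 1.32, -0.16 and 1.05 in sinusoidal, arterial and other cells. Col15a1, a basement membrane collagen, rose in sinusoidal cells (0.92) and stood at -0.45 in arterial cells, a difference of -1.50. Its sinusoidal rise was not called after thinning (0.30), where a fall in arterial cells was (-1.15). Vwa1 fell in arterial cells (-0.70) and stood at 0.57 in sinusoidal cells. Col4a1, a chain of the collagen IV network, was not called in any vessel type alone (0.47, -0.08 and 0.38), and its difference of -0.68 was not called after thinning (-0.50). Sparc, a collagen-binding protein, fell in all 3, with log2 folds of -1.19 in sinusoidal, -1.41 in arterial and -1.29 in other cells.

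Of the niche factors Cxcl12 and Kitl, which hold and maintain haematopoietic stem cells, both rose in other cells and Kitl rose in arterial cells, while Cxcl12 fell in sinusoidal cells. Of the 14 niche genes measured in each of sinusoidal and arterial cells, 6 rose and 1 fell in either type, and of 15 in other cells 8 rose and 1 fell. Over all genes 22.9%, 23.4% and 27.7% rose in sinusoidal, arterial and other cells. The arterial minus sinusoidal difference was called for 5 of 16, with 3 positive (Cxcl12, Jag1, Kitl) and 2 negative (Pdgfd, Sema7a), against 4.93% and 3.66% of all genes. The call of Sema7a (-0.73) was lost without adult replicate 2 (-0.38) and without aged replicate 1 (-0.39), and that of Pdgfd (-0.64) was lost without either adult library (-0.58 in both cases). Neither was called after thinning (-0.75 and -0.46).

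Cxcl12, the chemokine that retains stem cells in marrow (chr6:117168535-117181367, plus strand), stood in other cells at 341.8 and 352.5 CPM at 12 weeks and at 1056 and 1076 CPM at 75 weeks. In sinusoidal cells it fell from 176.3 and 235.2 CPM to 86.09 and 47.79 CPM. In arterial cells, where it was highest, 2000 and 2017 CPM stood against 2589 and 2494 CPM, a log2 fold of 0.34 that did not reach 1.5-fold. The log2 folds of the separate fits were -1.61 in sinusoidal, 0.34 in arterial and 1.62 in other cells, and all 3 pairs of vessel types differed in the joint model (1.81 ± 0.14 arterial minus sinusoidal, 3.13 ± 0.15 other minus sinusoidal, 1.32 ± 0.12 other minus arterial).

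Kitl, the ligand of the Kit receptor on stem cells (chr10:100015630-100100416, plus strand), stood in other cells at 82.35 and 87.78 CPM at 12 weeks and at 433.3 and 443.7 CPM at 75 weeks. In arterial cells it rose from 298.2 and 298.4 CPM to 779.3 and 735.8 CPM. In sinusoidal cells, where it was low, 17.92 and 16.97 CPM stood against 26.29 and 22.07 CPM. The log2 folds were 2.37, 1.34 and 0.47. Other minus arterial was 1.06 ± 0.08, whereas arterial minus sinusoidal, 0.74 ± 0.13, was not called after thinning (0.32), without likely doublets (0.21) or with plain library totals (0.54). Pdgfb, which recruits pericytes and osteoprogenitors, rose in all 3 types, by 1.02 in sinusoidal, 1.18 in arterial and 1.76 in other cells.

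Markers of mesenchymal and bone-forming cells moved both ways, and their part in the result was not tested. Of 13 measured in other cells 5 rose (Alpl, Cxcl12, Dcn, Lepr, Pdgfra) and 5 fell (Adipoq, Bglap, Ibsp, Runx2, Spp1), of 7 in arterial cells 3 rose and 2 fell, and of 11 in sinusoidal cells 1 rose and 9 fell. Of all genes 27.7% rose and 27.1% fell in other cells, 23.4% and 19.4% in arterial cells, and 22.9% and 25.2% in sinusoidal cells. In the aged libraries 2 and 3 of the 16 markers were at 0 in other cells and 4 and 5 in arterial cells, against 0 and 0 and against 2 and 0 in the adult ones. Summed over the 16 markers, of which Cxcl12 and Alpl are also endothelial genes here, the level was 477.3 and 451.4 CPM at 12 weeks and 1417 and 1291 CPM at 75 weeks in other cells, 2181 and 2290 CPM and 2844 and 2744 CPM in arterial cells, and 255.6 and 345.5 CPM and 114.3 and 78.89 CPM in sinusoidal cells. Cxcl12 itself makes up most of these sums in arterial and other cells. Dcn, decorin, a defining transcript of fibroblasts, stood at 23.53 and 27.79 CPM in adult and 250.3 and 113.7 CPM in aged other cells, and at 0.8645 and 3.595 CPM in adult and 47.56 and 28.43 CPM in aged arterial cells. Igfbp6 and the actin-severing Gsn were likewise higher in aged other cells, at 224.3 and 158.7 CPM against 7.945 and 6.789 CPM for Igfbp6 and at 266.4 and 211.6 CPM against 34.07 and 41.68 CPM for Gsn.

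Class II histocompatibility genes, which present peptides to helper T cells, rose in every vessel type, with the highest medians of the lists examined. All 7 measured genes rose in sinusoidal and in arterial cells and 6 of 7 in other cells, with median log2 folds of 3.17, 2.44 and 2.54 against medians near 0 over all genes. The shares of all genes that rose were 22.9%, 23.4% and 27.7%. A larger proportional rise in sinusoidal cells was called for 4 of 7 against arterial cells and for 6 of 7 against other cells. Over all genes 3.66% and 4.88% of differences were called in those directions. The 4 calls against arterial cells did not hold after thinning, as given below. The levels were higher in arterial than in sinusoidal cells at both ages.

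To show the letters of 2 of the 3 class II promoters searched, the 150 bases before the RefSeq start of H2-Aa and H2-Eb1 are shown (GRCm38.p6; H2-Aa at chr17:34287824-34287973 on the minus strand, H2-Eb1 at chr17:34305717-34305866 on the plus strand), each read 5′ to 3′ on the strand of the gene. Capitals mark GATTGG on either strand, the letters of the Y box of class II promoters.

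H2-Aa: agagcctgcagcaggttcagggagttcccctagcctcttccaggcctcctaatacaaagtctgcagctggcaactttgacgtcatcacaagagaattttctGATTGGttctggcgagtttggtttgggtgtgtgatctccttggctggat
H2-Eb1: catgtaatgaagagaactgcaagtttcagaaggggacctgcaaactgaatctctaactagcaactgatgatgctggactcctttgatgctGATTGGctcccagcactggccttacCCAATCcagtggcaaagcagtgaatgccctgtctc

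The letters begin 49 bases before the start in H2-Aa and 60 bases before it in H2-Eb1, and both are preceded by CT. In H2-DMb1, the remaining one searched, they begin at -62 and are not preceded by CT. H2-Eb1 also holds CCAATC, the same letters on the other strand. Of 32851 promoters in the table, 16.1% held GATTGG on either strand within 300 bases and 4.1% held CTGATTGG. The match is a description of the letters and not of binding, and H2-Ab1 had no entry.

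H2-Aa, an α chain, stood in sinusoidal cells at 12.72 and 12.41 CPM at 12 weeks and at 146.2 and 128.8 CPM at 75 weeks. In arterial cells it stood at 86.88 and 98.1 CPM and then at 504.6 and 496.9 CPM. Both pairs of groups were far apart, with log2 folds of 3.45 and 2.44 and a difference of -1.14 ± 0.18. H2-Eb1, a β chain, rose from 5.31 and 5.151 CPM to 115.4 and 102.7 CPM in sinusoidal cells (4.38) and from 33.28 and 30.82 CPM to 412 and 424.1 CPM in arterial cells (3.70). Cd74, the invariant chain, rose from 20.24 and 36.99 CPM to 469 and 405.9 CPM in sinusoidal and from 143.9 and 217.3 CPM to 1874 and 1795 CPM in arterial cells.

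H2-DMb1, a peptide-exchange subunit, rose by 3.17 in sinusoidal and 1.98 in arterial cells, and Ciita, the class II transactivator, rose by 2.77, 3.10 and 2.54 in sinusoidal, arterial and other cells from adult levels of at most 3.08 CPM. H2-DMa was the member that did not pass in other cells (0.19), whereas it rose by 2.14 and 2.17 in the sinusoidal and arterial types. In other cells H2-DMa was called after thinning (1.72), without likely doublets (1.28) and with stricter gates (0.63). After thinning, the arterial minus sinusoidal difference was not called for any of the 4 members: H2-Aa stood at -0.67, H2-Eb1 at -0.85, Cd74 at -0.37 and H2-DMb1 at -0.91. H2-Eb1 also lost the call without either adult library (-0.71 and -0.79), and Cd74 without adult replicate 1 (-0.56). With all 10 libraries in the fit neither H2-Eb1 (-0.81) nor Cd74 (-0.73) was called, nor was Cd74 with DESeq2's Wald test (-0.72). Leukocytes carry these genes too. The summed haematopoietic markers were lower in aged than adult sinusoidal cells, at 255.9 and 282 CPM against 785.2 and 947.1 CPM, and in arterial cells, at 221 and 254.8 CPM against 374.8 and 384.7 CPM. In other cells they were uneven, at 301.6 and 1899 CPM against 1794 and 2167 CPM. Their part in the class II values was not tested.

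Interferon-stimulated genes moved both ways. Of 35 measured, 14 rose and 11 fell in sinusoidal cells, 10 rose and 8 fell in arterial cells, and 17 rose and 5 fell in other cells. The arterial counts were near the shares of all genes, 23.4% higher and 19.4% lower. In sinusoidal cells 22.9% of all genes were higher and 25.2% lower, and in other cells 27.7% and 27.1%. Gbp4, a guanylate-binding GTPase, rose in all 3 (2.28 sinusoidal, 1.47 arterial, 2.53 other), and so did the T cell chemokine Cxcl9 (1.91, 1.95 and 2.27). In arterial cells Cxcl9 was at 1.24 without adult replicate 1 and at 2.98 without adult replicate 2. Other minus arterial was called positive for 10 and negative for 2, against 3.17% and 4.15% of all genes. Cxcl10 in arterial cells is set by 1 library: it stood at 54.44 CPM in adult replicate 2 and at 1.54 to 4.58 CPM in the other three, and without that library its log2 fold was 0.46.

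Of 20 immediate early genes measured, which also respond to cell dissociation, 13 fell and 1 rose in sinusoidal cells, 7 were called in arterial cells, each of them lower, and 6 fell and 3 rose in other cells, with medians of -0.878, -0.284 and -0.0987. Over all genes 25.2%, 19.4% and 27.1% fell in sinusoidal, arterial and other cells, so the count of falls in other cells was near that of all genes. The age effect was more positive in arterial than sinusoidal cells for 8 and more negative for 2, against 4.93% and 3.66% of all genes. Fos, a subunit of the AP-1 dimer, fell alike in all 3: sinusoidal cells held 581.6 and 610.7 CPM at 12 weeks and 90.95 and 83.87 CPM at 75 weeks, a log2 fold of -2.77, and arterial and other cells gave -2.97 and -2.41. Jund, another AP-1 subunit, split instead. It stood in sinusoidal cells at 362.8 and 350.4 CPM and then at 200.1 and 194 CPM, and in arterial cells at 321.2 and 277.4 CPM and then at 417.3 and 417.2 CPM. The difference was 1.20 ± 0.07 (adjusted p = 4.04e-12). Egr1 went the other way, falling in arterial cells (-0.84, not called without adult replicate 2 at -0.67 or aged replicate 2 at -0.47) and standing at 0.11 in sinusoidal ones.

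Gadd45g, a stress-inducible growth arrest gene, stood in sinusoidal cells at 415.2 and 440 CPM at 12 weeks and at 92.39 and 99.04 CPM at 75 weeks. In arterial cells 198.4 and 234.7 CPM stood against 161.8 and 155.7 CPM. It fell by 2.16 in sinusoidal and 1.54 in other cells, and arterial cells, at -0.44, did not reach 1.5-fold; arterial minus sinusoidal was 1.58 ± 0.09. Of 21 heat shock and folding genes, 2 rose and 7 fell in sinusoidal cells, 2 rose in arterial cells, and 2 rose and 5 fell in other cells. Of all genes 25.2%, 19.4% and 27.1% fell in these types. Hspe1, a mitochondrial co-chaperonin, fell in sinusoidal (-1.34) and other cells (-1.37) and stood at -0.53 in arterial cells. Hspa1a and Hspa1b, 2 nearly identical Hsp70 genes, gave opposite signs in sinusoidal cells (-0.89 and 1.84), and since reads cannot be reliably assigned between them neither value is certain.

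Rgs4, Adamts5 and Dnase1l3, all far lower in arterial than in sinusoidal cells at 12 weeks, fell in arterial cells at 75 weeks. Not every gene of sinusoids did so: Fcgr2b rose in arterial cells (1.95). Rgs4, a regulator of G protein signalling, stood in sinusoidal cells at 546.8 and 570.1 CPM at 12 weeks and at 379.5 and 363.3 CPM at 75 weeks. In arterial cells it stood at 33.28 and 40.06 CPM and then at 2.289 and 1.793 CPM, and the difference of the age effects was -3.69 ± 0.27. Adamts5, an aggrecanase, stood at a log2 fold of -0.18 in sinusoidal cells and fell in arterial (-2.52) and other cells (-2.44).

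Expressed as arterial level in percent of the sinusoidal level of the same library, Rgs4 went from 6.26% and 7.18% to 0.561% and 0.462%. Adamts5 went from 2.56% and 3.13% to 0.562% and 0.454%, and Dnase1l3 from 1.8% and 2.66% to 0.363% and 0.719%. All 3 ratios were lower in both aged libraries than in either adult one. Stab2 went from 2.69% and 2.93% to 0.299% and 0.405%, but the gates set its level in both vessel types, so this ratio is a description and supports nothing. Flt4, the receptor of VEGF-C, stood at 14.5% and 14.3% and then at 12.3% and 12.2%, and Il6st, the gp130 cytokine receptor subunit, at 13.7% in both adult libraries and at 15.5% and 16.3%, so these 2 did not show a drop of that size. The 12 genes drawn were chosen after their values were seen. The part in these falls of RNA from sinusoidal cells captured together with arterial cells was not tested.

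**Figure D4:**
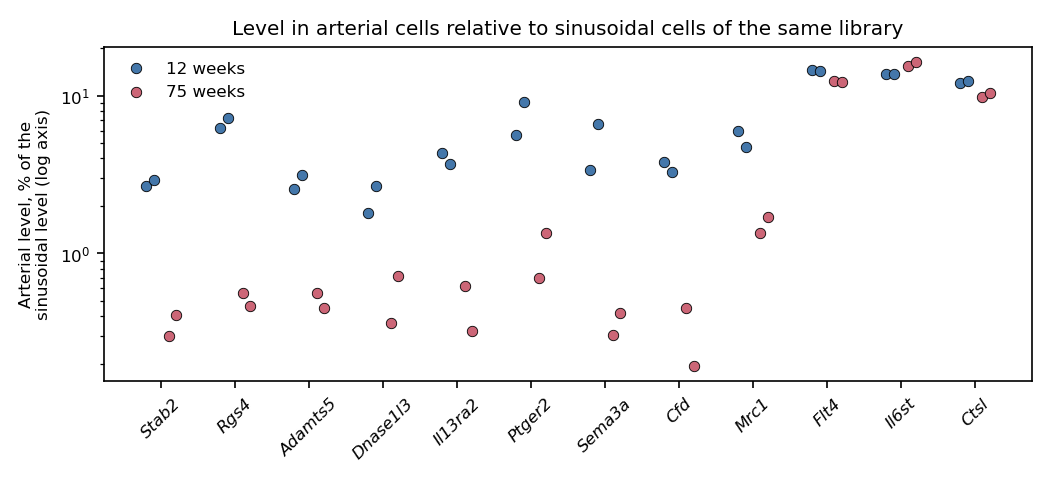
Level of 12 genes in arterial cells as a percentage of the level in sinusoidal cells of the same library (log axis), for the 2 adult and 2 aged libraries. Rgs4, Adamts5 and Dnase1l3 lie several-fold lower in the aged libraries, as does Stab2, whose level the gates set, while Flt4, Il6st and Ctsl lie between 9.85% and 16.3% at both ages.

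Split by the 12-week level, a division chosen after the values were seen, the 737 genes at least 4 times higher in arterial cells had 28 called differences that were more positive in arterial cells and 93 more negative (3.8% and 12.6%). The 937 genes at least 4 times higher in sinusoidal cells had 42 and 52 (4.48% and 5.55%), and the 11939 within 4 times had 601 and 353 (5.03% and 2.96%). The 12-week ratio that splits the genes is also part of the difference counted, which favours negative differences among genes high in arterial cells and positive ones among genes high in sinusoidal cells, so these counts are a description alone.

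Among 17 scavenger and clearance genes measured in sinusoidal cells, 1 rose and 6 fell there, where 25.2% of all genes fell. Arterial minus sinusoidal was called negative for 4 (Dnase1l3, Ehd3, Gpr182, Mrc1) and positive for 1 (Fcgr2b), of which Ehd3 (-0.66) was not called without adult replicate 2 (-0.18) or without aged replicate 2 (-0.33), nor after thinning (-0.37), and other minus sinusoidal negative for 10 and positive for 1. Over all genes 3.66% were called negative and 4.93% positive for arterial minus sinusoidal, and 4.88% and 3.18% for other minus sinusoidal. Ctsl, a lysosomal protease, stood in sinusoidal cells at 6530 and 6404 CPM and then at 4022 and 3844 CPM, and in other cells at 2444 and 2578 CPM and then at 684.1 and 685.7 CPM. The fall was larger in other cells by 1.26 ± 0.05 on the log2 scale.

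The age effect on arterial identity genes was more positive in other than in sinusoidal cells for 11 of 25 and more negative for none, against 3.18% and 4.88% of all genes. Other minus arterial was called positive for 10 and negative for 2, where 3.17% and 4.15% of all genes were. Within other cells 9 of 24 rose and 3 fell, against 27.7% and 27.1% of all genes, within sinusoidal cells 1 of 23 rose and 6 fell, against 22.9% and 25.2%, and within arterial cells 4 of 25 rose and 5 fell, against 23.4% and 19.4%. The falls in sinusoidal and arterial cells were thus near the shares of all genes. Efnb2, ephrin-B2, the classical arterial ligand, stood in other cells at 85.25 and 80.2 CPM at 12 weeks and at 221.2 and 210.6 CPM at 75 weeks, a log2 rise of 1.38. It rose by 0.83 in arterial cells and stood at 0.50 in sinusoidal cells. Sema3g rose by 1.38 and Nebl by 1.85 in other cells, against 0.79 and 0.72 in arterial cells. As a percentage of the sinusoidal level of the same library, Rgs4 in other cells went from 24.3% and 25.8% to 2.97% and 4.46%. Adamts5 went from 26.1% and 27.9% to 5.25% and 5.26%, and Flt4 from 39.7% and 41.8% to 23.3% and 21.9%. Other cells thus held relatively less of these sinusoidal transcripts at 75 weeks. The genes were chosen after their values were seen, and the part of the make-up of the other cells in the values above was not tested.

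Of 10 genes of type R capillaries measured in other cells 6 were called, each of them higher, with a median of 0.97, where 27.7% of all genes rose. In sinusoidal cells 2 of 9 rose and 2 fell (0.188), against 22.9% and 25.2% of all genes. In arterial cells 4 of 10 rose and 3 fell (0.308), against 23.4% and 19.4%. Other minus sinusoidal was called positive for 5 and negative for 2, against 3.18% and 4.88% of all genes. Other minus arterial was called positive for 3, against 3.17%. Timp4, an inhibitor of metalloproteinases, stood in other cells at 79.14 and 67.26 CPM at 12 weeks and at 438.3 and 314.4 CPM at 75 weeks. It rose from 34.58 and 29.79 CPM to 74.77 and 76.83 CPM in arterial cells, and stood at 5.57 to 11.2 CPM in sinusoidal cells with overlap between ages. Other minus arterial was 1.15 ± 0.19. Aqp7, a glycerol channel, rose in other (1.48) and arterial cells (1.08). Dach1, a transcription factor of arterial and capillary cells, rose from 8.708 and 6.789 CPM to 65.52 and 53.36 CPM in other cells (2.93) and by 2.00 in arterial cells. Cav1, the caveolar coat protein, rose in other cells (0.85) and stood at -0.04 in arterial cells. Fmo2, a flavin monooxygenase, rose in all 3, most in sinusoidal cells (3.46 against 2.48 and 2.76). Its arterial minus sinusoidal difference (-1.12) was not called without adult replicate 1 (-1.03).

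Of 20 genes of fatty acid transport by capillaries 9 rose and 3 fell in other cells, 2 rose and 4 fell in sinusoidal cells, and 4 rose and 4 fell in arterial cells. The arterial counts were near the shares of all genes (23.4% higher, 19.4% lower), the falls in sinusoidal cells were under theirs (25.2%), and 27.7% of all genes rose in other cells. The difference was called positive for 7 and negative for 2 both for other minus sinusoidal and for other minus arterial. The shares of all genes were 3.18% and 4.88% for the first pair and 3.17% and 4.15% for the second. The summed level of the list in other cells was lower at 75 weeks, at 15590 and 15520 CPM against 20750 and 20610 CPM. Fabp4, a fatty acid binding protein and the most abundant transcript of the list, stood in sinusoidal cells at 27070 and 26270 CPM at 12 weeks and at 12790 and 13330 CPM at 75 weeks. Arterial values stayed between 8949 and 9622 CPM. The age effect differed by 0.84 ± 0.04 (adjusted p = 3.6e-13). Lpl, lipoprotein lipase, rose in other cells from 80.06 and 87.94 CPM to 352.4 and 263.8 CPM (1.87) and in arterial cells by 0.68, a call lost without adult replicate 1 (0.46), and stood at -0.58 in sinusoidal cells. Slc2a1, the glucose transporter Glut1, rose in other cells from 36.36 and 34.73 CPM to 202.4 and 153.1 CPM (2.32) and in arterial cells (1.54), but its arterial minus sinusoidal difference of 1.35 turned to -0.04 after thinning. Of 24 glycolysis and hypoxia genes, 4 differences were more positive and 1 more negative in arterial cells, against 4.93% and 3.66% of all genes. Tcf15, a transcription factor of capillary fatty acid uptake, rose in other cells alone among the 3 (1.07, against -0.03 and 0.14), by 0.97 more than in arterial cells.

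Of 10 type H capillary genes measured, 5 rose and 2 fell in sinusoidal cells (median 0.732), 1 rose and 4 fell in arterial cells (-0.53), and 3 rose and 2 fell in other cells (-0.00465), the last near the shares of all genes. Of all genes 22.9%, 23.4% and 27.7% rose in sinusoidal, arterial and other cells, and 25.2%, 19.4% and 27.1% fell. The arterial minus sinusoidal difference was called for 7, negative each time, against 3.66% of all genes. Aplnr, the apelin receptor, stood in other cells at 828.1 and 767.8 CPM at 12 weeks and at 410.7 and 405.9 CPM at 75 weeks, and in sinusoidal cells at 352.2 and 359.7 CPM and then at 340.2 and 367 CPM. It fell by 0.97 in other and 1.26 in arterial cells and stood at -0.01 in sinusoidal cells. Ramp3, a subunit of the adrenomedullin receptor, fell in arterial (-1.36) and other cells (-1.27). In sinusoidal cells it stood at -0.59, a call lost without adult replicate 2 (-0.48), aged replicate 1 (-0.55) or aged replicate 2 (-0.58). Kcne3, a potassium channel subunit, rose in sinusoidal cells (0.99) and fell in arterial cells (-0.73). Neither change was called after thinning (0.02 and -0.59). After thinning, the arterial minus sinusoidal difference was no longer called for 4 of these 7: Ramp3 (-0.15), Kcne3 (-0.73), Apln (-2.99) and Col4a1 (-0.50).

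Further lists gave these counts, against 4.93% positive and 3.66% negative over all genes. Of 20 VEGF, apelin and angiopoietin genes, arterial minus sinusoidal was positive for 1 and negative for 4. Of 15 flow-responsive genes 2 were positive and 3 negative, and of 16 cholesterol genes 1 and 3. The differences called were all negative for 2 of 14 vasoactive and prostaglandin genes, 2 of 14 metalloproteinases and inhibitors and 5 of 15 haemostasis genes. Of those 5, the call of Selp depends on single libraries as given above, and that of Vwf (-0.78) was lost without either adult library (-0.76 and -0.69). In that list Vwf, von Willebrand factor, rose in all 3 types (2.23 sinusoidal, 1.59 arterial, 1.98 other), and Thbd, thrombomodulin, fell in sinusoidal and other cells (-0.69 and -0.66). Of 16 clock genes 5 differed, each more negative in arterial cells (Bhlhe40, Cry2, Per2, Per3, Tef), of which Bhlhe40 (-0.42) and Per3 (-0.47) were not called without adult replicate 2, nor Bhlhe40 without aged replicate 2 (-0.47). The call of Per2 (-1.17) was lost without adult replicate 1 (-0.48), aged replicate 1 (-1.11) or aged replicate 2 (-1.22). After thinning Bhlhe40 (-0.28), Cry2 (-0.83) and Per2 (-0.72) were not called. Arntl, the core activator of the clock, rose in all 3 (1.67, 2.37 and 1.14) and Per3, a repressor, fell in arterial and other cells (-1.03 and -0.84). The hour at which the bones were taken is not given in the sources used here, and its part was not tested.

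**Figure D5:**
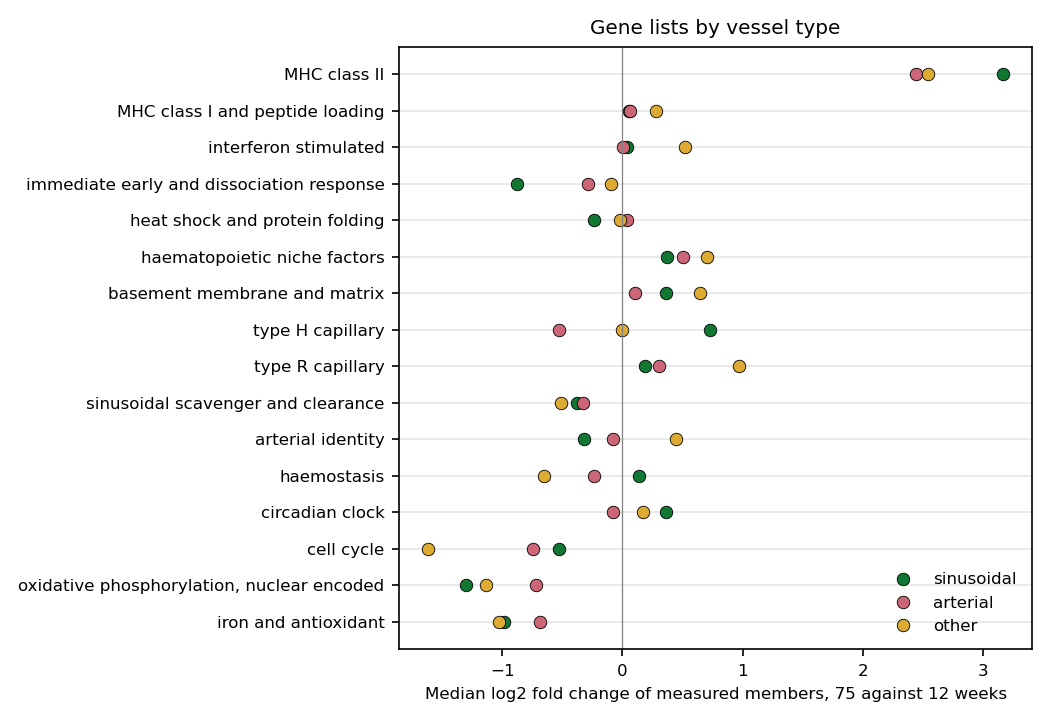
Median log2 fold change at 75 against 12 weeks (horizontal axis) of the measured genes in 16 lists, with 1 marker for each of sinusoidal, arterial and other cells; 0 is no change. Class II genes have the highest medians in all 3. The median of immediate early genes is lower in sinusoidal than in arterial or other cells. That of cell cycle genes is lower in other than in sinusoidal or arterial cells.

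In other cells 18 of 21 cell cycle genes fell, where 27.1% of all genes did, with a median of -1.62, against 8 falling and 1 rising of 21 in sinusoidal cells (-0.529) and 8 falling of 13 measured in arterial cells (-0.749). Of all genes 25.2% fell in sinusoidal and 19.4% in arterial cells. Other minus sinusoidal was called for 10, negative each time, against 4.88% of all genes. Most markers of blood cells fell in the same cells: of 14 haematopoietic markers measured in other cells 11 fell and 2 rose. Camp, Ngp and S100a9, genes of neutrophils, were among the largest called rises there with at least 50 CPM and no overlap of ages. The megakaryocyte markers summed to 164.1 and 186.8 CPM at 12 weeks and to 21.69 and 20.38 CPM at 75 weeks. Blood progenitors divide too, and their part in the fall of the cell cycle genes was not tested. Stmn1, a microtubule-destabilising protein, stood in other cells at 266.9 and 265.9 CPM at 12 weeks and at 36.82 and 35.97 CPM at 75 weeks, a log2 fall of 2.87, against falls of 1.71 in sinusoidal and 0.95 in arterial cells. Top2a, a topoisomerase of dividing cells, fell in other cells from 64.93 and 66.63 CPM to 30.72 and 29.38 CPM, and stood at 0.33 in sinusoidal cells with overlap. Mcm5, a replication helicase subunit, fell in other cells (-1.78) and was not called in sinusoidal (-0.37) or arterial cells (-0.12).

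Of 20 senescence and cell cycle inhibitor genes, the age effect was more positive in arterial than sinusoidal cells for 2 and more negative for 5. The shares of all genes were 4.93% and 3.66%. Within arterial cells 3 of 19 rose and 8 fell, within other cells 4 of 20 rose and 10 fell, and within sinusoidal cells 1 of 20 rose and 4 fell. Over all genes 19.4%, 27.1% and 25.2% fell in these types, so the falls in sinusoidal cells were not above the share of all genes. Cdkn1a was among few risers. Cdkn2a, the gene of p16, fell in other cells (-1.07) and stood at -0.25 in sinusoidal cells. In arterial cells it stood at -1.92, a call lost without adult replicate 2 (-1.49), and its arterial minus sinusoidal difference (-1.83) was lost when any 1 of the 4 libraries was left out (-2.08 to -1.57). Trp53 fell in all 3 (-0.77, -0.94 and -1.02). Ccnd1, cyclin D1, rose in all 3, most in sinusoidal cells (1.64, against 0.78 and 1.08). Its arterial call was lost after thinning (0.25).

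Of 57 nuclear-encoded genes of oxidative phosphorylation, 56 fell in sinusoidal cells, 46 in arterial cells and 57 in other cells, and none rose, with medians of -1.3, -0.718 and -1.14. Of all genes 25.2%, 19.4% and 27.1% fell in these types. Arterial minus sinusoidal was called for 7, positive each time, against 4.93% of all genes. Where the vessel types differed the fall was thus smaller in arterial cells. Cox4i1, a subunit of cytochrome c oxidase, stood in sinusoidal cells at 1573 and 1563 CPM at 12 weeks and at 581.7 and 577.3 CPM at 75 weeks. Arterial cells went from 1191 and 1152 CPM to 615.2 and 623.4 CPM. Mitochondrially encoded genes moved the other way, with 5 of 8 measured rising in each type and medians of 1.03, 1.41 and 1.04. The shares of all genes that rose were 22.9%, 23.4% and 27.7%. Iron and antioxidant genes fell as well, 12 of 19 in sinusoidal, 10 of 18 in arterial and 16 of 19 in other cells, against 25.2%, 19.4% and 27.1% of all genes. Ftl1, ferritin light chain, went from 1486 and 1592 CPM to 237.4 and 218.8 CPM in sinusoidal cells. These lists follow the aged libraries as a whole, and library features and age cannot be told apart for them.

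Markers of other cell types were uneven between libraries. Erythroid genes summed to 2815 and 2787 CPM of all endothelial cells at 12 weeks and to 1395 and 6636 CPM at 75 weeks, so aged replicate 2 stood apart. Haematopoietic markers summed to 1112 and 1355 CPM and to 252.8 and 819.2 CPM. Immunoglobulin genes in sinusoidal cells summed to 58.74 and 1487 CPM and to 1.441 and 2.879 CPM, so adult replicate 2 stood apart. Megakaryocyte markers were lower in the aged libraries, at 22.95 and 19.93 CPM against 128.5 and 128.6 CPM in all endothelial cells. Mural markers in arterial cells were lower, at 97.93 and 106.3 CPM against 318.5 and 683.6 CPM. Myofibre markers stayed between 4.05 and 6.78 CPM, and lymphatic markers, which include Flt4, were higher in aged sinusoidal cells, at 940.3 and 888 CPM against 724.4 and 675.4 CPM. Without aged replicate 2, 1064 arterial minus sinusoidal differences were called, and without adult replicate 2, 1026.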

How the data were processed

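Single-cell libraries of sorted bone endothelium were analysed from the deposited matrices of UMI counts per gene and cell, which the authors made from Chromium 3′ reads. The submitters' processing notes name UMI-tools 1.1.2, STAR 2.7.10a and Subread featureCounts 2.0.3 on mm10; the strand of counting and the treatment of reads with several matches are not given in the sources used here. No cell annotation was used, and the counts were not corrected for free RNA.

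Cells were gated as described, without a doublet caller in the main result; an alternative left out the 5% of cells with the most UMIs in each library and cells with both Stab2 and arterial genes. Cells between them held 12647465 to 20109633 UMIs a library, and 2014737 UMIs in the smallest sum of a vessel type. Gene names that begin with U were left out. Counts summed per library and vessel type were tested with edgeR 4.0.16 (quasi-likelihood, filterByExpr, trimmed mean of M-values) in R 4.3.3, with p-values adjusted over all genes by the Benjamini-Hochberg method. The SE beside a log2 value was computed from that test, as the absolute log2 fold divided by the square root of its F statistic. It restates the test and is not a separate measure of spread. The difference of age effects was an interaction term over 12 sums with library as a block. Calls needed an adjusted p under 0.05 and a fold of at least 1.5. The fits were tested on simulated data. Sums, shares and figures used Python 3.11.15, numpy 2.4.6, pandas 2.3.3, scipy 1.17.1 and matplotlib 3.10.9. Positions are from GENCODE M21 (GRCm38, the assembly of mm10), and promoters from RefSeq on GRCm38.p6.

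The comparison, gates and gene lists were chosen with earlier results of these data known. Genes were named by rule: the 6 genes with the largest and the 6 with the smallest called fold in each test (12 and 12 for arterial minus sinusoidal) with at least 50 CPM in a group and ages that do not overlap, the 4 most abundant members of each list, and members called for arterial minus sinusoidal. For a difference, a mean of 50 CPM in any vessel type was enough, also in the type outside the pair compared. Gate genes, predicted genes, mt- genes and ribosomal protein genes were not named by it, and not every gene that it chose is printed. 1 gene is not reported here. Further list members given beside these, Apoe and Gsn were chosen after their values were seen. The alternatives were DESeq2 1.42.0 (size factors and Wald test), plain library totals, no filter on low counts, all 10 libraries, a replicate block, no library block, stricter cell filters and gates, thinning to 2000 UMIs, and each library left out in turn. Replicate numbers did not pair the libraries: deviations of libraries with the same number correlated at -0.00914 to 0.0884. The 2 libraries of an age differed by more than sampling noise (chi-square per degree of freedom 1.37 to 8.32), so they were not taken for copies of 1 library, which does not make them biological replicates. No intervals of counting error were computed, and values given as a log2 fold alone are not shown per library.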

Additional observations from a re-analysis of the deposited data

Results flagged for a closer look

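The first set of results stood out because the age effect differed between arterial and sinusoidal cells by the test of the difference itself, and values are log2 age effects in arterial minus sinusoidal cells. Those more positive in arterial cells were Igfbp6 (6.483), Dcn (5.631), Plac8 (3.492), Fgl2 (3.371), Fbn1 (3.252), Meis2 (2.926), S100a4 (2.764), St8sia6 (2.433), Fcgr2b (2.392), Tmem100 (2.346), Cdkn1a (2.181) and Ly6c2 (2.162). A positive difference need not be a rise in arterial cells. Plac8 was lower in them (-0.67), a call lost without adult replicate 1 (-0.87), adult replicate 2 (-0.53) or aged replicate 1 (-0.29). Fbn1 (-2.24) and Tmem100 (-2.80) fell in sinusoidal cells. Dcn, Fbn1 and Igfbp6 encode matrix or secreted proteins typical of fibroblasts, and Fcgr2b, an inhibitory receptor for immunoglobulin, is typical of sinusoids. Igfbp6 was counted at 0.8645 and 0 CPM in adult arterial cells and at 27.21 and 43.28 CPM in aged ones, so its size depends on how a level near 0 is treated. The level needed to enter this set could be reached in any vessel type, other cells included. Igfbp6 and Dcn stayed below 50 CPM in the arterial cells of every library and were higher in aged other cells. Single libraries moved some of these sizes: without adult replicate 1 Igfbp6 was at 11.14, without aged replicate 1 Fbn1 was at 8.367 and Tmem100 at 1.415 (not called), without adult replicate 2 Tmem100 was at 2.198 (not called), and without aged replicate 2 Fgl2 was at 5.226 and Tmem100 at 6.114. After thinning Igfbp6 (2.214), Dcn (4.219), Fbn1 (3.063), Meis2 (1.673), St8sia6 (5.321), Tmem100 (4.066) and Ly6c2 (2.072) were not called.

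Those more negative in arterial cells were Ptx3 (-5.306), Sema3a (-3.697), Rgs4 (-3.691), Cfd (-3.426), Il13ra2 (-3.043), Ctgf (-2.777), Ptger2 (-2.736), Adamts5 (-2.472), Gpr97 (-2.177), Cp (-2.133) and Piezo2 (-2.113). Sema3a, Rgs4, Cfd, Il13ra2, Ptger2 and Adamts5 were at most 9.09% of their sinusoidal level in the arterial cells of any adult library. The size of Ptx3 rests on adult replicate 2, where its arterial level was 89.3% of the sinusoidal one, against 6.96% in adult replicate 1. Without adult replicate 2 it was -2.691, and after thinning it was not called (-2.014). Ptger2 was not called without adult replicate 2 (-2.303), nor Cfd after thinning (-1.78). Ctgf and Piezo2 moved in sinusoidal cells and not by a fall in arterial ones. Cd34 (-1.711) stood out because it was called in opposite directions in the 2 vessel types.

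Gene names that begin with U, left out of every comparison, drew UMIs in the aged libraries (1.524% and 1.535% of all UMIs) and none in the adult ones. This is a signal in data outside the main measurement, and its source was not tested.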

How the results depend on the processing

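The share of sinusoidal cells stayed lower and that of arterial cells higher at 75 weeks under every alternative run, with sizes that depended on the gates. The sinusoidal difference was -24.51 percentage points with a stricter filter on cells, -14.26 after thinning, -7.585 with stricter gates and -23.48 without likely doublets, and the arterial one 20.7, 12.58, 15.71 and 20.18. The difference in other cells was 3.805 with a stricter filter and 3.305 without likely doublets, turned to -8.13 with stricter gates, and ran from -0.21 (without aged replicate 2) to 2.52 when each library was left out. The cause was not tested. With DESeq2's Wald test fewer differences of age effects were called: 594 for arterial minus sinusoidal, 390 for other minus sinusoidal and 448 for other minus arterial. Leaving out each library gave 1026 to 1078, 903 to 984 and 771 to 994. Plain library totals put the median log2 fold of all genes at 0.42 in sinusoidal, 0.09 in arterial and 0.26 in other cells, and moved the share of calls that were higher at 75 weeks from 47.65% to 74.97%, from 54.68% to 63.13% and from 50.54% to 65.82%, so calls are relative to the bulk of genes. Of the named genes, Slc2a1 (-0.04301) and Gsn (-0.2203) turned sign in arterial minus sinusoidal after thinning, as Gsn did within arterial cells (-2.129). Without adult replicate 2, Cxcl10 in arterial cells turned to 0.4566, and without adult replicate 1 it was -4.155. Cxcl9 in arterial minus sinusoidal ran from -0.7043 (without adult replicate 1) to 1.029 (without adult replicate 2). After thinning 943, 910 and 704 differences were called for the 3 pairs of vessel types, among them 554 of 1169, 455 of 1097 and 401 of 997 of those reported, and thinning ended 46 calls of named genes, more than any other alternative did. Named genes were checked within sinusoidal, arterial and other cells and for arterial minus sinusoidal. They were not checked for other minus sinusoidal or other minus arterial. Thinning also changes which cells pass the gates, and the parts of depth and of gating in these losses were not tested.

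With the replicate number as a block, 1242, 1215 and 1097 differences were called for the 3 pairs of vessel types, and 6432, 4817 and 7332 genes within sinusoidal, arterial and other cells (8077 in all cells). The numbers do not pair the libraries, and the block ended no call of a named gene and added 3.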

Other observations

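Among the genes with at least 50 CPM in both vessel types, a restriction chosen after the values were seen, Mgst1, Gstp1, Socs3, Ybx3 and Apoe were some of those with a more positive age effect in arterial than in sinusoidal cells. Mgst1, a membrane glutathione transferase, stood in sinusoidal cells at 1442 and 1400 CPM at 12 weeks and at 501 and 471.8 CPM at 75 weeks. In arterial cells 389.9 and 387.8 CPM stood against 359.6 and 328.6 CPM, so the fall was 1.55 on the log2 scale in sinusoidal cells and was not called in arterial cells (-0.18), a difference of 1.23. Gstp1, a soluble glutathione transferase, fell in both (-3.33 and -2.08), by less in arterial cells. Socs3, a feedback inhibitor of cytokine signalling, fell in sinusoidal cells (-1.58) and stood at -0.28 in arterial cells. Ybx3, a cold shock domain protein that binds RNA, rose in arterial cells (1.89) and stood at 0.54 in sinusoidal cells. Apoe, the lipid carrier, fell in both, with log2 folds of -1.86 in sinusoidal and -0.68 in arterial cells.

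Of the 30 genes called in opposite directions, most stood below 50 CPM. Serpinb6b, an intracellular protease inhibitor, fell in sinusoidal cells from 89.16 and 84.4 CPM to 57.99 and 50.09 CPM and rose in arterial cells from 21.18 and 22.6 CPM to 59 and 50.71 CPM, ending at a like level in both. Gpr126, an adhesion receptor of sinusoids, rose in sinusoidal cells from 273.8 and 263.3 CPM to 458.5 and 486.9 CPM, and fell in arterial cells from 13.83 and 11.81 CPM to 7.375 and 5.122 CPM. The sinusoidal call of Serpinb6b (-0.68) was lost without aged replicate 2 (-0.55), and the arterial call of Gpr126 (-1.04) without adult replicate 1 (-0.93) or aged replicate 2 (-0.80). Both genes were chosen after their values were seen. Aqp1, a water channel, fell in arterial cells (-0.75) and stood at 0.12 in sinusoidal cells, a difference of -1.01, and Fscn1, an actin-bundling protein, fell in both and more in arterial cells, by a difference of -1.48, with the sinusoidal call (-0.66) lost without aged replicate 2 (-0.58).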
